A study of Homo sapiens with 10 samples.

Results

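The comparison described here is the silencing of *TRPS1* by small interfering RNA (siRNA) in T47D cells, an established human breast cancer line of luminal type. Its members are 4 of the 10 samples of the series, 2 libraries of cells given *TRPS1* siRNA and 2 of cells given a control siRNA, each collected 72 h after transfection. Total RNA was sequenced after removal of ribosomal RNA. Of 18984 genes in the count table, 12921 had over 2 CPM (counts scaled to a library of 1e6) in at least 2 of the 4 libraries and were tested. The remaining samples of the series are *CHD4* siRNA, TRPS1 ChIP and input libraries. The list of *TRPS1* siRNAs does not state which of them was used for these libraries, and the labels do not state that replicates were separate cultures, so that p-values measure only the spread between these libraries.

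TRPS1 is an atypical GATA factor, a zinc finger protein that binds GATA sequences in DNA and is known mainly as a repressor of transcription. It partners with chromatin complexes such as NuRD, which combines nucleosome remodelling with histone deacetylation. In the breast it is a marker of the luminal epithelium. Luminal cells line the ducts and carry keratins 8, 18 and 19, the estrogen receptor and the factors GATA3 and FOXA1, whereas basal cells carry keratins 5 and 14 and the p53 relative TP63.

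The libraries held between 10333138 and 14668358 counts, and 3 counts corresponded to between 0.195 and 0.283 CPM. Control siRNA replicate 1 stood apart. It had counts in 14636 genes against 16779 to 17796 in the other 3 libraries, and its log2 CPM correlated with the other RNA-seq libraries at r = 0.865 to 0.885, whereas the other 5 correlated with each other at 0.946 to 0.977. Between the 2 control libraries 4238 genes (32.8%) differed by over 2-fold, and between the 2 *TRPS1* siRNA libraries 339 genes (2.62%) did. Fold changes are therefore also given against each control library alone. All 4 libraries carried the luminal genes *ESR1*, *GATA3*, *FOXA1*, *KRT8*, *KRT18*, *KRT19*, *CDH1*, *EPCAM* and *PGR*, with at least 927 counts in each library. The basal keratins *KRT5*, *KRT14* and *KRT17* had at most 8 counts in any library, and the immune genes *PTPRC* and *CD3E* had 0.

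Values below are CPM normalized by the trimmed mean of M values (TMM), in the order control siRNA replicates 1 and 2 and then *TRPS1* siRNA replicates 1 and 2. *TRPS1* itself was at 1423 and 2234 CPM in the controls and at 1147 and 716 CPM upon silencing. Both silenced libraries lay below both controls, and replicate 2 was the lower. The log2 fold change was -0.97 (standard error 0.39, unadjusted p = 0.0459 in edgeR), which was -0.61 against control replicate 1 alone and -1.26 against control replicate 2 alone. The decrease stayed just under 2-fold against both controls together. In bulk RNA a lower level in every cell and fewer cells with the transcript cannot be told apart.

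A gene is said here to have risen or fallen if its fold change was over 2 and its unadjusted p under 0.05 in the quasi-likelihood test of edgeR, the threshold of the study. By this rule 349 genes rose, 2.70% of those tested, and 410 fell, 3.17% (5.87% in either direction). No gene had an adjusted p under 0.05 in this test (smallest 0.659, with 902 genes at an unadjusted p under 0.05), against 34 genes with the likelihood ratio test and 37 with DESeq2 at the same filter. Both silenced libraries lay above both controls in 22.8% of all tested genes and below both in 21.3%. The calling rule nearly fixes such a separation, with 347 of the 349 genes that rose above both controls and 409 of the 410 that fell below both. Of the genes that rose, 247 (70.8% of them and 1.91% of all tested genes) were also over 2-fold higher against each control library alone. Of those that fell, 127 (31.0% of them and 0.983% of all tested genes) were over 2-fold lower against each alone. Of the 349 that rose, 94 had over 2 CPM in the silenced libraries only. Of the 410 that fell, 11 had it in the controls only. With over 2 CPM required in all 4 libraries, 168 of 333 genes higher and 96 of 382 genes lower were over 2-fold changed against each control alone. The median log2 change of the genes that fell was -1.69 against control replicate 1 and -0.86 against control replicate 2, and for the genes that rose it was 1.84 and 1.34. The falls were thus larger against the library that stood apart. Leaving that library out gave 708 genes higher and 326 lower, and leaving out control replicate 2 gave 2487 and 1878. Without *TRPS1* siRNA replicate 1 the counts were 47 and 50, and without replicate 2 they were 112 and 109.

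**Figure D1:**
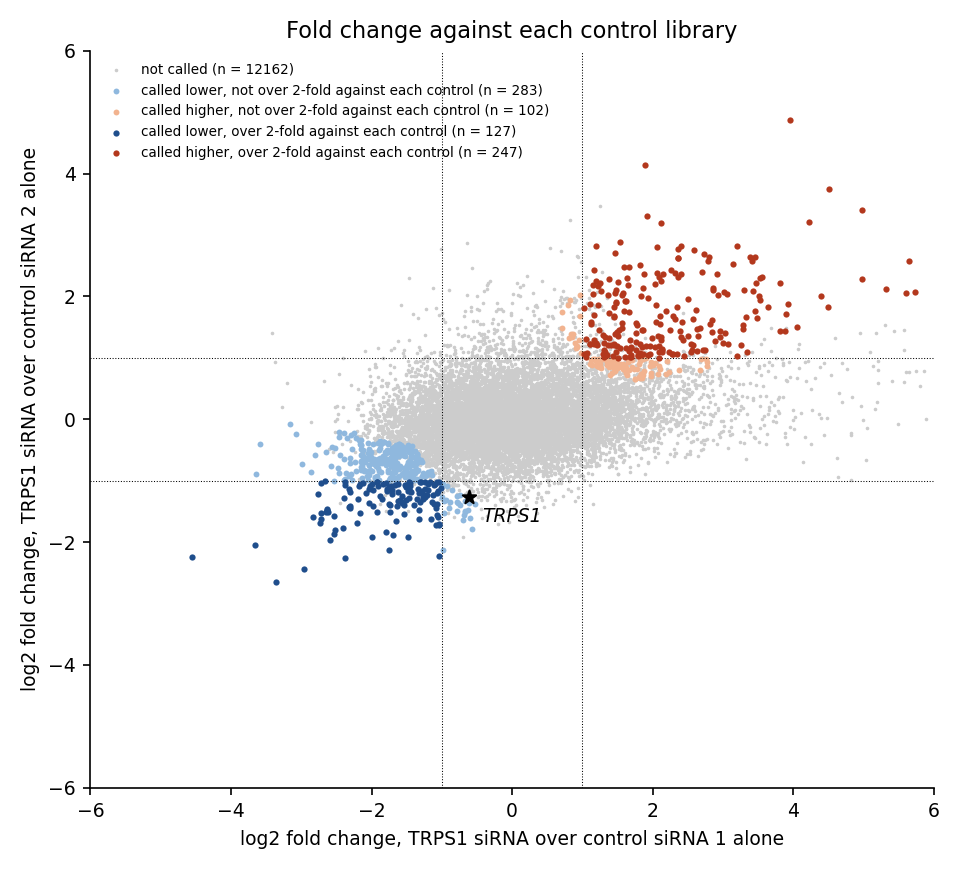
Log2 fold change of each tested gene upon silencing *TRPS1* against control siRNA replicate 1 alone (horizontal) and against control siRNA replicate 2 alone (vertical), with dotted lines at 2-fold, dark points for called genes over 2-fold against each control, pale points for the other called genes and a star for *TRPS1*. The 247 dark red and 127 dark blue points lie in the outer corners, most pale blue points are past 2-fold against control replicate 1 only, and 206 genes outside the axis range of 6 are not drawn.

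Among genes with a mean of at least 10 CPM, 94 rose and 106 fell with over 2-fold change against each control alone. The largest rises in this set included membrane transporters, an esterase, a chemokine, matrix proteins and 2 non-coding RNAs. *ABCA4* (chr1:93992834-94121148), a retinoid transporter of the ABC family, was at 1.73 and 4.16 CPM in the controls and at 14.1 and 24.4 CPM upon silencing. This gave a log2 fold change of 2.70 (standard error 0.61), 3.47 against control 1 and 2.21 against control 2. *ABCA1*, which exports cholesterol from cells, was at 5.77 and 10.3 CPM against 40.3 and 31.1 CPM, a log2 fold change of 2.15 (2.62 and 1.78 against each control). In both transporter genes the groups did not overlap, as in 347 of the 349 genes that rose.

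*NAALADL2* (chr3:174440982-175810548), a gene of the N-acetylated alpha-linked acidic dipeptidase family that spans 1370 kb, was at 17.8 and 40.9 CPM in the controls and at 201 and 150 CPM upon silencing. Its log2 fold changes were 3.30 and 2.1 against the 2 controls. *BCHE* (chr3:165772904-165837423), which encodes the esterase butyrylcholinesterase, was at 6.57 and 27.3 CPM and reached 101 and 99.6 CPM. The 2 silenced libraries were nearly equal here, and the controls differed from each other, so that the log2 fold change was 3.93 against control 1 and 1.88 against control 2. *KIAA1683* (now *IQCN*, chr19:18257098-18274452) was at 4.48 and 3.71 CPM in the controls and at 25.3 and 20.7 CPM upon silencing. With close values in both groups it had the smallest unadjusted p of all genes (0.000911 in edgeR, log2 fold change 2.49 with a standard error of 0.43, and 2.36 and 2.62 against each control).

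*CCL28*, a chemokine of mucosal epithelia, was at 14.4 and 12.4 CPM in the controls and at 84.2 and 43.4 CPM upon silencing (log2 fold change 2.25, with 2.14 and 2.36 against each control). *FREM2*, an extracellular matrix protein of basement membranes, was at 5.12 and 18.1 CPM against 80.4 and 34.3 CPM (2.30, with 3.48 and 1.66). *COL5A2*, a chain of collagen V, was at 5.70 and 4.68 CPM against 19.7 and 21.6 CPM (1.99, with 1.86 and 2.14). The rise of *COL5A2* was similar in size against either control, and that of *FREM2* was larger against control 1. *PPP1R3C*, which targets protein phosphatase 1 to glycogen, had a log2 fold change of 2.06 (2.35 and 1.83) and the zinc finger gene *ZNF493* of 2.00 (3.03 and 1.41). The non-coding *LINC00342* rose from 3.25 and 7.58 CPM to 20.9 and 25.7 CPM (2.11, with 2.84 and 1.62). *SCARNA7*, a small Cajal body RNA that guides modification of spliceosomal RNA, had 0.361 and 5.42 CPM in the controls and 33.7 and 21.7 CPM upon silencing (3.26, with 6.22 and 2.35). It lies inside *KPNA4*, and reads of the host transcript cannot be told apart from its own in these counts.

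The 12 largest falls in the same set are given next. *SLC7A5* (chr16:87830023-87869507), the light chain of the LAT1 transporter for large neutral amino acids, was at 2744 and 1159 CPM in the controls and at 334 and 439 CPM upon silencing. That is a log2 fold change of -2.34 (standard error 0.49, unadjusted p = 0.00246 in edgeR), with -2.83 against control 1 and -1.58 against control 2. It was the most abundant of the 12 genes named by size of fall. *ATP6AP1* (chrX:154428677-154436516), an accessory subunit of the proton pump of lysosomes, was at 225 and 144 CPM against 43.4 and 30.9 CPM, a log2 fold change of -2.31 (-2.60 and -1.96 against each control). *NOC4L* (chr12:132144457-132152468), a nucleolar protein of small ribosomal subunit assembly, was at 41.4 and 13.5 CPM against 2.83 and 3.65 CPM (-3.07, with -3.66 and -2.04). *PHB2*, a prohibitin of the inner mitochondrial membrane, was at 107 and 51.7 CPM against 21.1 and 11.2 CPM (-2.30, with -2.74 and -1.69). In each of these 4 genes both silenced libraries lay below both controls, and control replicate 1 was the highest library.

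Of the other 8 genes with the largest falls, *ZDHHC12* (a palmitoyltransferase), *MAP4K2* (a kinase), *NXPH3* (a neurexophilin), *FOLR1* (a folate receptor), *PRADC1* and *UBE2C* had log2 fold changes between -2.28 and -2.06, between -2.76 and -2.61 against control 1 alone and between -1.62 and -1.01 against control 2 alone. *MDGA1*, a membrane-anchored adhesion protein, was at 35.7 and 24.9 CPM against 7.55 and 7.88 CPM (-1.97, with -2.21 and -1.69). *ACOX2*, a peroxisomal oxidase, was at 19.3 and 18.4 CPM against 4.25 and 5.40 CPM (-1.96, with -1.99 and -1.92). For *ACOX2* the choice of control made no difference to the size of the fall.

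**Figure D2:**
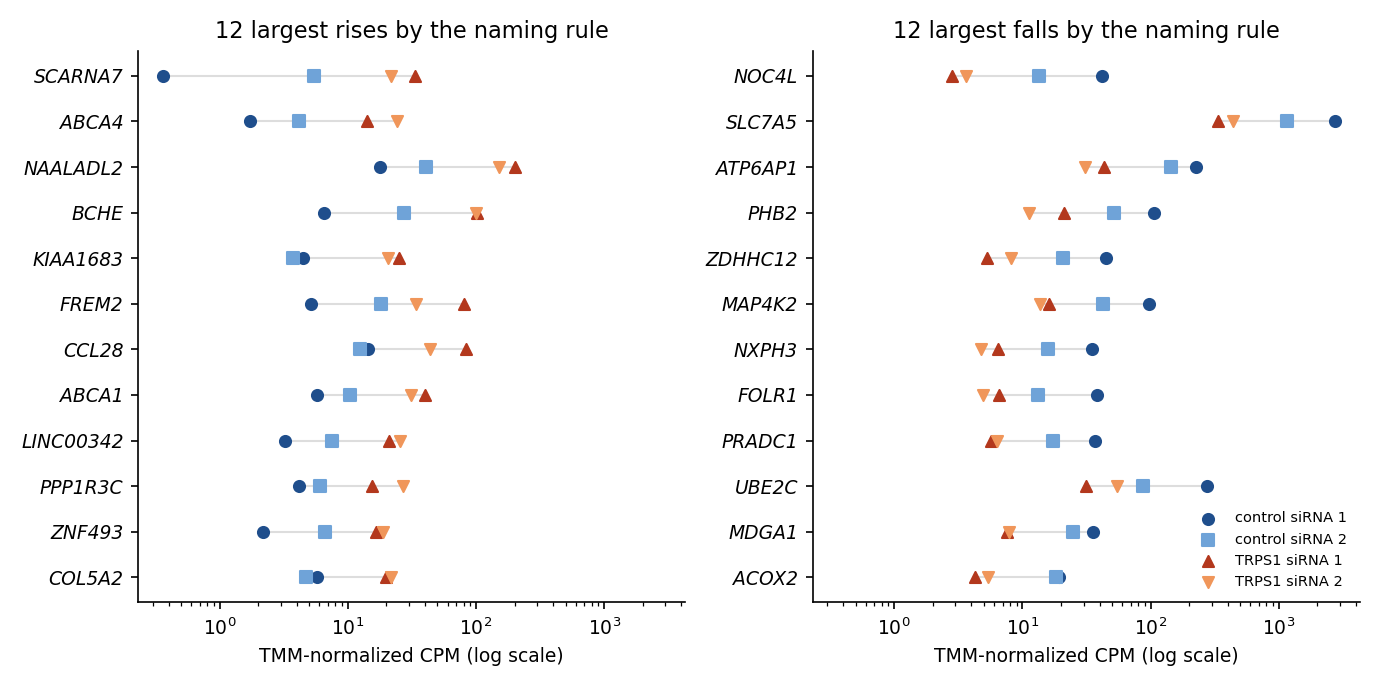
TMM-normalized CPM (log scale) of the 12 genes with the largest rises (left) and the 12 with the largest falls (right) among called genes with a mean of at least 10 CPM and over 2-fold change against each control alone, 1 point for each library. In all 24 genes the 2 *TRPS1* siRNA points (triangles) lie on one side of both control points (circle and square), which the way they were chosen nearly fixes. *SLC7A5* spans the range from 334 to 2744 CPM.

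Among the 10 genes with the smallest unadjusted p, *KIAA1683*, *ATP6AP1* and *NAALADL2* are described above. *KPNA2* (chr17:68035735-68046854), an importin that carries proteins into the nucleus, was at 692 and 708 CPM in the controls and at 175 and 224 CPM upon silencing, a log2 fold change of -1.81 (standard error 0.32), with -1.80 and -1.83 against each control. *FAM65C* (now *RIPOR3*) was at 105 and 120 CPM against 36.8 and 27.9 CPM (-1.80, with -1.70 and -1.89). For both genes the 2 controls nearly coincided. *MAML2*, a coactivator of Notch receptors, was at 2.38 and 2.67 CPM against 20.6 and 13.0 CPM (2.72, with 2.81 and 2.64). *THSD7A*, a membrane protein with thrombospondin repeats, was at 1.37 and 1.78 CPM against 13.8 and 11.7 CPM (3.01, with 3.21 and 2.83). *COLCA1*, a transcript that overlaps *POU2AF3*, was at 0.433 and 0.743 CPM against 13.5 and 6.84 CPM (4.09, with 4.51 and 3.74). *MAML2* was above 2 CPM in all 4 libraries. *THSD7A* and *COLCA1* were below it in both controls and above it in both silenced libraries, so they could enter the test only by being higher there. *CDH10*, a neuronal cadherin, had 4 and 2 counts in the controls (0.289 and 0.149 CPM) and was at 3.87 and 5.34 CPM upon silencing. It entered the test in the same way. Its log2 fold change was 4.34, 3.96 against control 1, and its ratio to control 2 was 31.0 with a counting interval from 8.57 to 256.

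For 36 groups of genes chosen by name, the members that rose or fell are counted below against the shares of 2.70% and 3.17% of all tested genes, whose median log2 fold change was -0.02 (0.03 and 0.02 against each control). No test of a group was made. The lowest medians were those of mitosis, DNA replication and replication-dependent histones, and the group of clustered protocadherins had the highest, each against both controls together. Against control 1 alone small non-coding RNAs were higher (1.93 against 0.85). Against control 2 alone other cell types (0.76), mesenchymal transition (0.73) and, narrowly, basal and myoepithelial genes (0.52) were higher than the protocadherins (0.51).

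**Figure D3:**
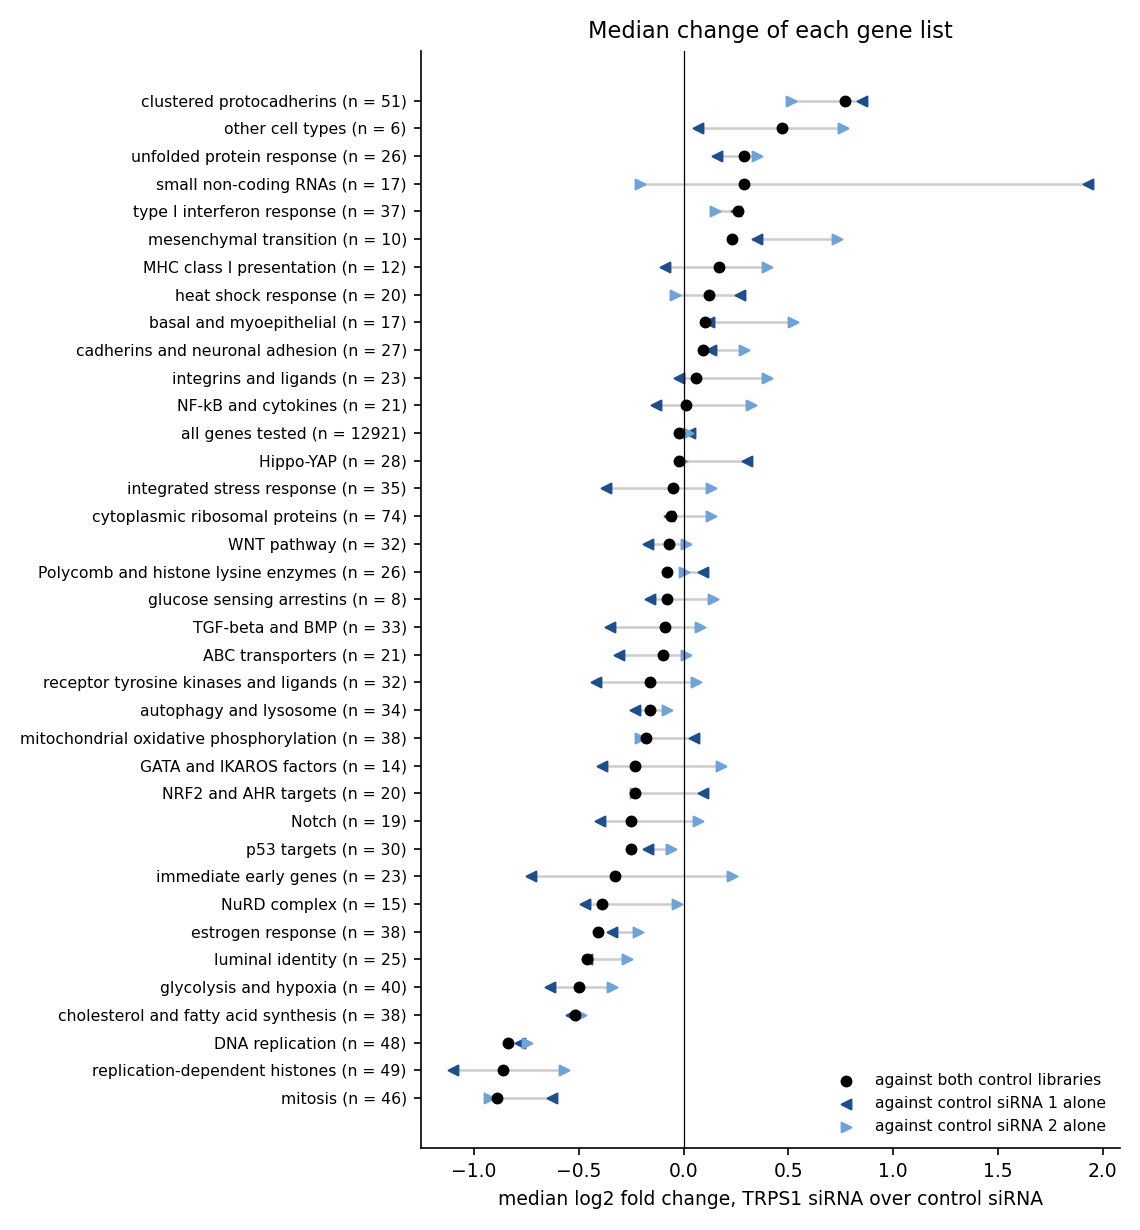
Median log2 fold change of the tested members of each gene group upon silencing *TRPS1*, against both control libraries (black circles) and against control siRNA replicate 1 or 2 alone (dark and pale triangles), with the number of members tested. The medians of mitosis, DNA replication and replication-dependent histones lie between -0.84 and -0.89 against both controls, and those of all genes tested at -0.02.

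Genes of cell division had the lowest median of all groups against both controls together, but not against control 1 alone. Of 46 mitosis genes 17 fell (37.0% against 3.17% of all genes) and none rose, with a median log2 fold change of -0.89 (-0.63 against control 1 and -0.93 against control 2). All 46 were below 0 against control 2, and 36 of 46 against control 1. Summed over the group, the level was 7091 and 8873 CPM in the controls and 3218 and 5829 CPM upon silencing. Of the cyclins and regulators, which include targets of the anaphase-promoting complex, 12 of 14 fell, while 3 of 10 kinases and checkpoint genes and 2 of 22 spindle and kinetochore genes did. This contrast depended on the control. In the same order the medians were -1.27, -0.55 and -0.19 against control 1, and -0.96, -0.91 and -0.93 against control 2. Over 2-fold lower against control 2 were 6, 3 and 9 members. Of those called, 4, 2 and 1 were over 2-fold lower against each control.

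*UBE2C*, the ubiquitin-conjugating enzyme of the anaphase-promoting complex, was at 274 and 87.1 CPM in the controls and at 31.1 and 55.1 CPM upon silencing, a log2 fold change of -2.06 (standard error 0.62) with -2.66 and -1.01 against each control. *AURKA*, a kinase of the spindle poles, was at 242 and 207 CPM against 57.9 and 96.9 CPM (-1.53, with -1.64 and -1.42). *PLK1*, a kinase that drives entry into mitosis, was at 327 and 148 CPM against 57.3 and 98.0 CPM (-1.61, with -2.07 and -0.93). *CDKN3*, a phosphatase that acts on CDKs, had a log2 fold change of -1.61 (-2.04 and -0.99). In all 4 genes *TRPS1* siRNA replicate 1 was the lowest library, and the groups did not overlap.

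In DNA replication, too, both silenced libraries were below both controls in the summed level, and replicate 1 was the lowest. Of 48 genes 8 fell (16.7%) and none rose, the median was -0.84 (-0.78 and -0.75 against each control), and all 48 were below 0 against both controls together. The summed level was 4996 and 4405 CPM in the controls and 1844 and 3344 CPM upon silencing. Of the 19 genes of origin licensing and the replicative helicase 6 fell, and of the 29 polymerase and nucleotide genes 2 did. *CDT1*, which loads the helicase, was at 197 and 81.6 CPM against 35.2 and 69.2 CPM (-1.42, with -1.91 and -0.64). *ORC1*, a subunit of the origin recognition complex, was at 31.5 and 20.2 CPM against 5.0 and 13.5 CPM (-1.48, with -1.75 and -1.11). *GINS2*, a subunit of the same helicase, had a log2 fold change of -1.88 (-2.46 and -0.88). *TK1*, thymidine kinase, had a log2 fold change of -1.41 (-1.67 and -1.08).

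The 2 silenced libraries differed in these groups. *TRPS1* siRNA replicate 2 was above replicate 1 in 46 of 46 mitosis genes and in 48 of 48 replication genes, with a median log2 ratio of 0.86 and 0.92. Replicate 1 was the lowest of the 4 libraries in 42 and 46 of them, against 2647 of all 12921 tested genes. Without replicate 1 no member of either group was called and the medians were -0.53 and -0.49, and without replicate 2 there were 8 and 6 genes lower and medians of -1.41 and -1.31. The *TRPS1* transcript was higher in replicate 1 (1147 CPM) than in replicate 2 (716 CPM). The part of a library difference in these falls was not tested.

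Replication-dependent histone genes, which are transcribed in S phase, had 15 of 49 members lower (30.6%) and none higher. Their median was -0.86, and it was -1.10 against control 1 and -0.57 against control 2. *HIST1H2AJ* (now *H2AC14*) was at 243 and 35.9 CPM in the controls and at 15.0 and 23.7 CPM upon silencing (-2.85, with -3.64 and -0.88). *HIST2H2AC* (now *H2AC20*) was at 370 and 85.0 CPM against 46.4 and 71.4 CPM (-1.95, with -2.65 and -0.53). *HIST2H2AB* had a log2 fold change of -2.18 (-2.87 and -0.85) and *HIST1H4D* of -1.96 (-2.53 and -1.0). Control replicate 1 was far above the other 3 libraries in these genes, and 19 of the 49 were over 2-fold lower in control 2 than in control 1. Near-identical histone copies can share reads, so that single members are uncertain. Without *TRPS1* siRNA replicate 1, 2 histone genes were called lower.

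**Figure D4:**
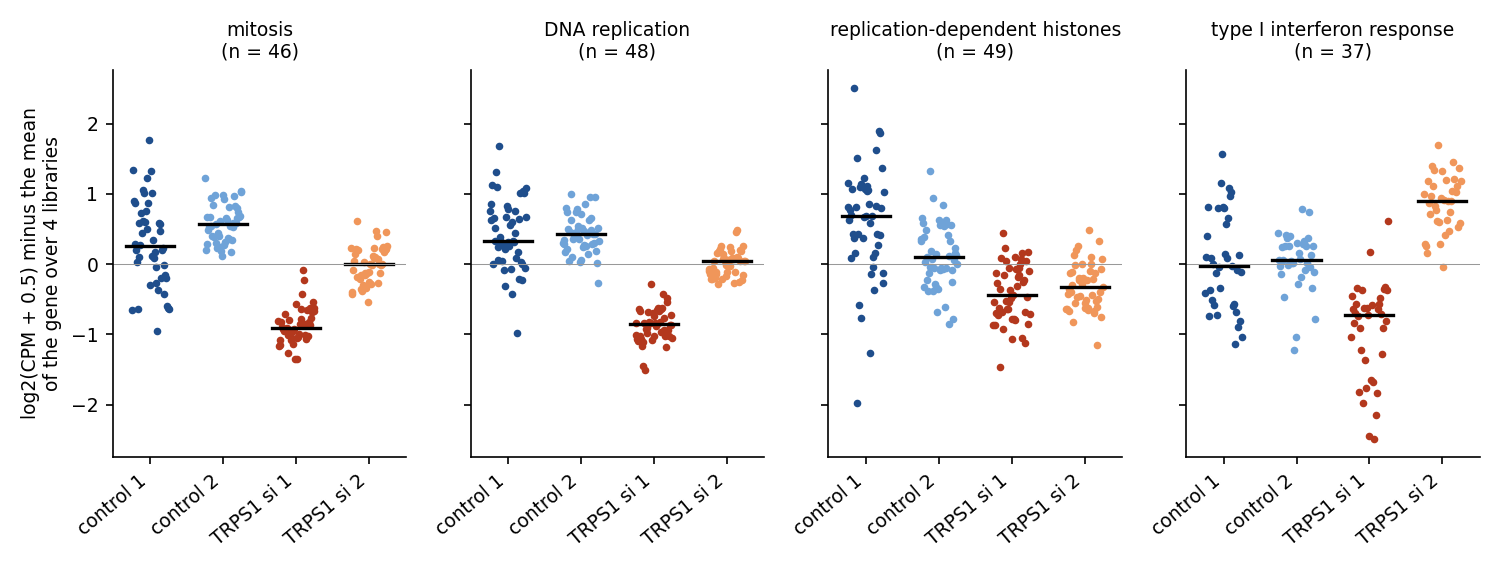
Log2(CPM + 0.5) of each gene of 4 groups in each library, minus the mean of the gene over the 4 libraries, with 1 point for each gene and a bar at the median. *TRPS1* siRNA replicate 1 is the lowest library in mitosis and DNA replication, both silenced libraries are low in histones, and the 2 silenced libraries lie on opposite sides of the controls in the interferon response.

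The type I interferon response, a program of antiviral genes switched on by interferon signalling, separated the 2 silenced libraries from each other. Of 37 tested genes 1 rose and none fell. The 1 was *TRIM22*, at 0.289 and 0.446 CPM in the controls and at 1.98 and 3.19 CPM upon silencing. Its log2 fold change was 2.79, with 3.14 and 2.53 against each control. *TRIM22* had over 2 CPM before TMM scaling in the silenced libraries only, so it could enter the test only by being higher there. With over 2 CPM required in all 4 libraries, none of 34 tested genes was called. Yet 28 of the 37 were over 2-fold higher in *TRPS1* siRNA replicate 2 than in replicate 1, against 219 of all 12921 genes, with a median log2 ratio of 1.70. Replicate 1 was the lowest library in 25 and replicate 2 the highest in 28, against 2647 and 2111 of all 12921 genes. Summed over the group, the controls were at 4261 and 3680 CPM and the silenced libraries at 1592 and 5907 CPM. Examples, chosen after their values were seen, are the antiviral effectors *IFIT1* and *ISG15*. *IFIT1* was at 63.2 and 84.4 CPM in the controls and at 17.6 and 167 CPM upon silencing. *ISG15* was at 54.4 and 38.3 CPM against 5.28 and 78.8 CPM. Without replicate 2, 9 members were called lower with a median of -0.86, and without replicate 1, 1 was called higher with a median of 0.89. The sign of the median thus changed with the silenced library that was left out.

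Among 25 genes of luminal identity 4 fell (16.0%) and none rose, with a median of -0.46 (-0.46 and -0.27 against each control). *KRT8* (chr12:52897191-52949860), a keratin of simple epithelia, was at 5119 and 3285 CPM in the controls and at 1058 and 1222 CPM upon silencing. This is a log2 fold change of -1.88 (standard error 0.35, unadjusted p = 0.00142 in edgeR), with -2.17 and -1.53 against each control. *KRT19*, another luminal keratin, was at 3470 and 2076 CPM against 1032 and 1086 CPM (-1.39, with -1.71 and -0.97). *KRT18*, the partner of keratin 8, did not pass the fold threshold at 2561 and 1710 CPM against 1118 and 1141 CPM (-0.92, with -1.18 and -0.60). All 3 keratins were lower in both silenced libraries than in either control. In the annotation used here *KRT8* and *KRT18* overlap, and processed copies of both exist, so that their counts are not fully separate.

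The luminal transcription factors were less uniform. *XBP1*, a factor of secretory cells, was at 1365 and 1348 CPM against 728 and 598 CPM (-1.03, with -1.04 and -1.02). *SPDEF*, an Ets factor of luminal cells, had a log2 fold change of -1.31, which was -1.87 against control 1 and -0.40 against control 2. *GATA3* was at 886 and 423 CPM against 523 and 414 CPM, *FOXA1* at 257 and 287 CPM against 268 and 188 CPM, and *ESR1* at 264 and 391 CPM against 195 and 233 CPM. None of these 3 factors passed the threshold, and of the 3 only *ESR1* had groups that did not overlap. Of the 14 luminal factors tested 2 fell, and 10 of 14 were below 0 against control 1 and 8 of 14 against control 2. *ELF5*, an Ets factor, lay above both controls upon silencing, at 68.7 and 126 CPM against 136 and 130 CPM (0.45, with 0.95 and 0.07).

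Of 28 basal and myoepithelial genes 17 were tested, 3 rose and none fell. With over 2 CPM required in all 4 libraries, 2 of 16 were higher and 1 was lower. *TP63*, the master factor of basal epithelia, was at 1.95 and 1.86 CPM in the controls and at 14.0 and 5.73 CPM upon silencing. Its log2 fold change was 2.32 against control 1 and 2.38 against control 2. *TP63* had over 2 CPM in the silenced libraries only, so it could enter the test only by being higher there. *NTN4*, a netrin of basement membranes, was at 17.7 CPM in both controls and at 53.9 and 50.8 CPM upon silencing, with a log2 fold change of 1.57 against either control. *DST*, which anchors keratin to hemidesmosomes, was at 125 and 268 CPM against 495 and 395 CPM (1.18, with 1.83 and 0.73). *NTN4* also counted among the integrins and their ligands, of which 1 of 23 rose. Both silenced libraries lay above both controls in 7 of the 17 genes and below both in 2, against 22.8% and 21.3% of all tested genes. The 2 that lay below were *KRT15* and *EGFR*, neither of which was called. *KRT15*, the 1 basal keratin tested, was at 9.89 and 10.6 CPM against 3.21 and 5.86 CPM (-1.16, with -1.10 and -1.20). *EGFR* was at 32.3 and 25.5 CPM against 18.6 and 13.2 CPM (-0.87, with -1.03 and -0.69). Of the defining basal keratins, *KRT5* had 0 and 0 counts in the controls and 2 and 1 upon silencing, and *KRT14* had 6 and 0 against 1 and 3. The summed level of the 4 basal markers was 2.38 and 1.93 CPM in the controls and 15.0 and 6.04 CPM upon silencing, nearly all of it *TP63*.

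Of 10 tested genes of mesenchymal transition none rose or fell, and *COL6A2*, the member with the smallest p, was at 4.33 and 2.08 CPM against 14.3 and 5.01 CPM (1.59, with 1.14 and 2.19, unadjusted p = 0.0661 in edgeR). Cadherins and neuronal adhesion genes had 4 of 27 members higher and 1 lower. *CDH10* and *SLITRK6* had over 2 CPM in the silenced libraries only, so they could enter the test only by being higher there. With over 2 CPM required in all 4 libraries, 4 of 20 were higher and 1 was lower. Besides *CDH10*, *ROBO2*, a receptor of axon guidance, rose from 9.82 and 15.5 CPM to 29.2 and 26.4 CPM (1.13, with 1.5 and 0.84). *SLITRK6* had 0 counts in control 1 and was at 0.520 CPM in control 2, against 3.02 and 2.80 CPM upon silencing, at least 13.4-fold higher than control 1 by a floor of 3 counts and a log2 fold change of 2.46 against control 2. *CELSR2*, an atypical cadherin, fell from 227 and 178 CPM to 101 and 89.4 CPM (-1.09, with -1.26 and -0.90).

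Of 51 clustered protocadherins, the surface proteins by which neurons tell each other apart, none rose or fell. Their median was 0.77 (0.85 and 0.51 against each control), and with over 2 CPM required in all 4 libraries it was 0.22. *PCDHA11*, the member with the smallest p, was at 6.5 and 13.2 CPM against 21.3 and 20.1 CPM (1.08, with 1.67 and 0.65, unadjusted p = 0.0614 in edgeR). Exons shared within these clusters leave the counts of single members uncertain. Over 2-fold differences between the 2 controls occurred in 17 of the 51 upward from control 1 to control 2 and in 4 downward.

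Among 38 estrogen response genes 6 fell (15.8%, 2 of them over 2-fold lower against each control) and 2 rose. The 6 were *SLC7A5*, *OLFM1*, *CCND1*, *KCNK5*, *CELSR2* and *CA12*, of which *CCND1*, *KCNK5* and *CA12* are outside the naming rule. *CCND1*, cyclin D1, was at 581 and 414 CPM against 221 and 218 CPM (-1.18, with -1.40 and -0.92). *OLFM1* was at 518 and 268 CPM against 119 and 206 CPM (-1.27, with -1.67 and -0.72). The 2 that rose were *HSPB8*, a small heat shock protein, at 96.6 and 69.5 CPM against 217 and 133 CPM (1.08, with 0.86 and 1.33), and *ELOVL2*, a fatty acid elongase, with a log2 fold change of 1.23 (1.5 and 1.00). *PGR*, a classical target, was at 664 and 2051 CPM in the controls and at 950 and 745 CPM upon silencing. Its log2 fold change was 0.35 against control 1 and -1.28 against control 2, so that its direction depended on the control.

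In metabolism, 7 of 38 genes of cholesterol and fatty acid synthesis fell (18.4%) and none rose, but none of the 7 was over 2-fold lower against control 2. *FASN*, fatty acid synthase, was at 2810 and 1084 CPM against 626 and 657 CPM (-1.6, with -2.13 and -0.76). *DHCR7*, the last enzyme of cholesterol synthesis, had a log2 fold change of -1.28 (-1.72 and -0.64), and *THRSP*, a regulator of lipogenesis, of -1.38 (-1.69 and -0.97). The medians against each control were close to each other, -0.54 and -0.49.

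Glycolysis and hypoxia genes had 6 of 40 members lower (15.0%) and 1 higher. *GAPDH* was at 2399 and 1181 CPM against 740 and 997 CPM (-1.04, with -1.47 and -0.44), and *TPI1*, triosephosphate isomerase, had a log2 fold change of -1.31 (-1.73 and -0.71). *BNIP3*, a mitophagy receptor induced by hypoxia, was at 640 and 182 CPM against 75.3 and 140 CPM (-1.93, with -2.57 and -0.76). *SLC2A3*, a glucose transporter, was the 1 that rose, from 0.722 and 0.966 CPM to 3.21 and 3.06 CPM (1.88, with 2.1 and 1.69). With over 2 CPM in the silenced libraries only, *SLC2A3* could enter the test only by being higher there. *TRPS1* siRNA replicate 1 was the lowest library in 27 of these 40 genes, against 2647 of all 12921 tested genes. Of 38 nuclear genes of oxidative phosphorylation none rose or fell (median -0.18), and *UQCRC1* of complex III had the smallest p (-0.86, with -0.99 and -0.72). The alpha-arrestin *ARRDC3*, which restrains glucose uptake, was the only 1 of 8 glucose sensing arrestin genes to rise, from 30.5 and 39.8 CPM to 107 and 87.3 CPM (1.47, with 1.67 and 1.29).

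Immediate early genes, the first to respond to growth factor signals through ERK, had 5 of 23 members lower (21.7%) and none higher. The 5 were *SPRY4*, *DUSP6*, *DUSP4*, *DUSP5* and *JUNB*. *SPRY4*, a Sprouty inhibitor, was at 6.28 and 3.86 CPM in the controls and at 0.377 and 0.781 CPM upon silencing (-3.08, with -3.36 and -2.65). *DUSP6*, an ERK phosphatase, was at 5.70 and 4.31 CPM against 1.51 and 1.5 CPM (-1.73, with -1.92 and -1.51). *DUSP4*, another MAP kinase phosphatase, was at 111 and 75.3 CPM against 45.4 and 22.7 CPM (-1.46, with -1.71 and -1.15). These 3 genes were over 2-fold lower against each control alone. *SPRY4* and *DUSP6* had over 2 CPM in the controls only, so they could enter the test only by being lower upon silencing. *DUSP5*, a phosphatase of the same family as *DUSP6*, was at 18.1 and 20.1 CPM against 10.0 and 9.05 CPM (-1.01, with -0.93 and -1.08). *JUNB*, an AP-1 subunit, was at 67.8 CPM in control 1 and at 14.2, 12.8 and 11.9 CPM in the other 3 libraries, so that its fall (-1.73) was -2.46 against control 1 and -0.20 against control 2. The median of the group was -0.73 against control 1 and 0.23 against control 2.

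In the Notch pathway *MAML2* rose while *NRARP*, *LFNG* and *NOTCH3* fell, out of 19 genes. *LFNG*, a glycosyltransferase that tunes Notch receptors, was at 31.4 and 25.3 CPM against 10.5 and 10.8 CPM (-1.41, with -1.56 and -1.25). *NRARP*, a target and feedback inhibitor, had a log2 fold change of -1.70 (-2.30 and -0.63), and the receptor *NOTCH3* of -1.17 (-1.63 and -0.49).

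In TGF-beta and BMP signalling 1 of 33 genes rose and 3 fell. The ligand *TGFB2* had 1 count in control 1 and was at 0.669 CPM in control 2, against 6.23 and 2.08 CPM upon silencing (log2 fold change 2.58 against control 2). Its ratio to control 1 was 57.4 with a counting interval from 10.3 to 2270. *TGFB2* had over 2 CPM in the silenced libraries only, so it could enter the test only by being higher there. The co-receptor *TGFBR3* was at 16.7 and 13.2 CPM against 4.34 and 5.60 CPM (-1.58, with -1.74 and -1.39), and the inhibitor *SMAD7* at 26.0 and 19.1 CPM against 10.3 and 8.59 CPM (-1.26, with -1.46 and -1.02). The ligand subunit *INHBB* had a log2 fold change of -1.05 (-1.37 and -0.65).

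*TGFB2* also counted among the 28 Hippo-YAP genes, of which 3 rose and 1 fell. *AMOTL1*, an angiomotin that binds YAP, was at 13.9 and 17.7 CPM against 51.4 and 42.4 CPM (1.57, with 1.76 and 1.41), *GADD45A* had a log2 fold change of 1.5 (1.76 and 1.26), and *CRIM1* was at 214 and 217 CPM against 103 and 76.5 CPM (-1.26, with -1.25 and -1.27). In the WNT pathway 2 of 32 genes rose. *RNF43*, a ligase that removes WNT receptors, was at 9.09 and 10.4 CPM against 36.1 and 26.0 CPM (1.67, with 1.77 and 1.57), and *TCF7L1* had a log2 fold change of 1.28 (0.82 and 1.94).

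In the stress programs few genes were called. Of 35 genes of the integrated stress response *DDIT3* rose and *SLC7A5* and *WARS* fell. *DDIT3*, the factor CHOP, was at 10.6 and 16.0 CPM in the controls and at 83.6 and 20.1 CPM upon silencing. Its log2 fold change was 1.96 (2.28 and 1.69), and 0.59 without *TRPS1* siRNA replicate 1. *WARS* had a log2 fold change of -1.04 (-1.37 and -0.61). Of 26 unfolded protein response genes *HSP90B1*, a chaperone of the endoplasmic reticulum, rose from 658 and 990 CPM to 1906 and 1654 CPM (1.11, with 1.44 and 0.85) and *XBP1* fell. Of 20 heat shock genes *HSPA6* rose (3.54 and 1.34 CPM against 24.0 and 3.13 CPM, 2.46 with 1.91 and 3.31), where the groups overlapped, and *HSPB1* fell (-1.75, with -2.46 and -0.29), with 1081 CPM in control 1 against 239, 218 and 174 CPM in the other 3 libraries. Of 30 p53 targets *GADD45A* rose and *CDKN1A* fell (-1.32, with -1.77 and -0.64).

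Among chromatin regulators, 1 of 15 NuRD genes fell and none rose. *GATAD2A*, a bridging subunit of NuRD, was at 92.4 and 49.6 CPM in the controls and at 19.8 and 17.1 CPM upon silencing (-1.94, standard error 0.44, with -2.32 and -1.43). Of 26 Polycomb and histone lysine enzymes, *SETD7*, a lysine methyltransferase, rose from 51.6 and 82.4 CPM to 170 and 164 CPM (1.32, with 1.69 and 1.02), and *SUV39H1*, which methylates histone H3 in heterochromatin, fell (-1.37, with -1.65 and -1.0). Of 14 GATA and IKAROS factors *IKZF2* rose, from 12.1 and 43.1 CPM to 79.5 and 85.7 CPM (1.58, with 2.78 and 0.94).

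Among 21 genes of a list of ABC transporters, which does not hold *ABCA4*, *ABCA1* and *ABCA12* rose and *ABCC11* and *ABCB9* fell. *ABCA12*, a lipid transporter of keratinocytes, had a log2 fold change of 1.66 against control 1 and 0.98 against control 2. *ABCC11* was at 265 and 262 CPM against 108 and 92.6 CPM (-1.40, with -1.40 and -1.39), and *ABCB9* had a log2 fold change of -1.01 (-1.35 and -0.56). Of 32 receptor tyrosine kinases and ligands only *EPHB2*, an ephrin receptor, rose, from 4.76 and 3.57 CPM to 15.6 and 11.1 CPM (1.67, with 1.48 and 1.89). Among 20 NRF2 and AHR targets *TALDO1*, transaldolase, fell (-1.6, with -1.85 and -1.30), and so did *OSGIN1* (-1.33, with -1.69 and -0.85). Of 34 autophagy and lysosome genes *ATP6AP1* fell, and of 21 NF-kB and cytokine genes *CCL28* rose. No member was called among 12 tested genes of MHC class I presentation, where *TAPBP* had the smallest p (-0.86, with -0.95 and -0.75), or among 6 tested genes of 28 from other cell types, where *CD8A* had it (0.289 and 1.04 CPM against 1.98 and 2.08 CPM, 1.6 with 2.78 and 0.96). Of the other genes that the study names for this comparison, *NLGN1* had log2 fold changes of 1.43 and 0.94 against each control and an unadjusted p of 0.0644 in edgeR, and *NHLRC1* of 1.87 and 1.46.

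Of 74 cytoplasmic ribosomal protein genes 5 rose and none fell, with a median of -0.06. *RPL11* was at 114 and 75.6 CPM in the controls and at 346 and 282 CPM upon silencing (1.73, with 1.46 and 2.05), and it was over 2-fold higher against each control. *RPS15A* was at 257 and 417 CPM against 953 and 681 CPM (1.28, with 1.67 and 0.97), *RPS27* had a log2 fold change of 1.28 (0.97 and 1.69) and *RPS24* of 1.05 (1.22 and 0.89). The summed level of the family did not separate the groups, at 44307 and 37033 CPM against 45372 and 35534 CPM. Processed pseudogenes of this family can share reads with the genes. Of 17 small non-coding RNAs *SCARNA7* was the 1 that rose, and none fell.

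Gene class, mean CPM and gene length were looked at for all genes that rose or fell. Of 526 long non-coding RNA genes 28 rose (5.32% against 2.70% of all genes) and none fell, with a median log2 fold change of 0.62, which was 1.01 against control 1 and 0.41 against control 2. Of 274 pseudogenes 15 rose and none fell. Of 11885 protein-coding genes 294 rose and 409 fell. The shares also went with level, in 4 bins of mean CPM. In the lowest bin 4.97% rose and 1.04% fell (median 0.34), and in the highest 1.07% rose and 5.13% fell. The share of long non-coding RNAs that rose was thus near that of the lowest bin. Whether it differs from that of other genes at the same level was not tested, here or with the filter below. Of the 28 long non-coding RNAs, 11 had over 2 CPM in the silenced libraries only, a pattern by which a gene can enter the test only if it is higher there, and so did 94 of all 349 genes that rose. With over 2 CPM required in all 4 libraries, an alternative chosen after seeing the data, 31 of 284 long non-coding RNAs were higher (10.9% against 2.89% of all 11515 genes) and none lower.

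The shares of called genes are given next by gene length, without a test. In the shortest eighth of genes (0.207 to 5.94 kb from start to end) 6.04% fell and 2.14% rose, and in the longest (130 to 2220 kb) 0.629% fell and 5.22% rose. The levels were compared with each control in the same bins. The median log2 fold change went from -0.39 to 0.53 across the eighths against control 1 and was 0.07 and 0.08 at both ends against control 2, while the ratio of control 2 to control 1 went from -0.47 to 0.43. The median ratio between the 2 silenced libraries was -0.08 and -0.01 in the same bins. Among genes over 2-fold changed against each control alone, the shares higher were 1.70% and 3.84% and the shares lower 1.70% and 0.441% in the shortest and the longest eighth.

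**Figure D5:**
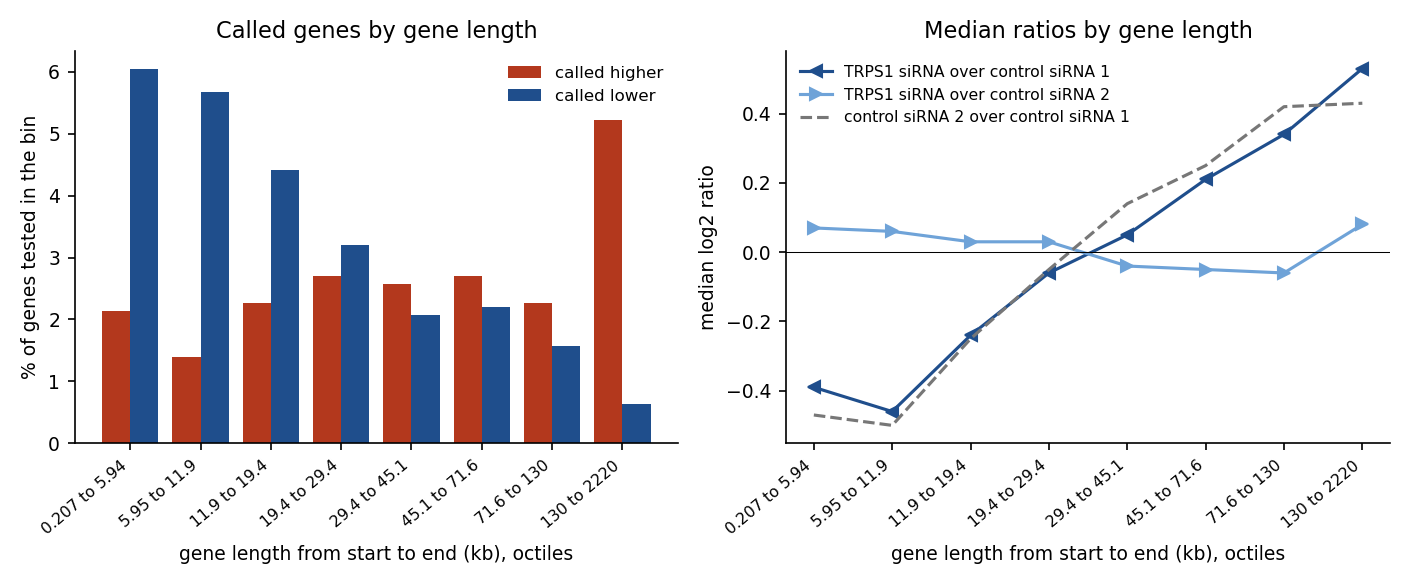
Left, share of tested genes that rose (red) or fell (blue) in each eighth of gene length, in percent, and right, median log2 ratio of the same genes for silenced libraries over each control and for control 2 over control 1. The shares that fell go from 6.04% to 0.629%, and the line against control siRNA replicate 1 follows that of control 2 over control 1, whereas the line against control siRNA replicate 2 stays within 0.08 of 0.

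The deposited list of 1844 TRPS1 ChIP peaks from the same cell line was set beside the changes. Of the genes that rose and have a RefSeq position, 39 of 338 had a peak in the gene or within 5 kb of it (11.5%, 95% Wilson interval 8.56 to 15.4%), of those that fell 39 of 410 (9.51%, 7.04 to 12.7%), and of all tested genes 1032 of 12707 (8.12%, 7.66 to 8.61%). With a peak inside the gene itself the shares were 10.1%, 4.88% and 5.70%. The intervals cover counting error only. Long genes hold more sequence in which a peak can lie, and among genes of 71.6 kb or longer 5.48% with a peak and 3.47% without one rose, and 2.51% with a peak and 0.876% without one fell. Over 2-fold higher against each control were 2.97% and 2.52% of these genes. Distances to transcription starts were not used for this, since only 79.0% of the tested genes have a start in the promoter table. Of the 12 genes with the largest rises 2 had a peak inside the gene, *ABCA4* and *NAALADL2*, and 3 had one inside or within 5 kb. Of the 12 with the largest falls 1 had a peak inside the gene, *ACOX2*, and none of the others had one within 5 kb.

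Promoter windows run from 250 bases before the start to 50 after it. A peak overlapped the window of 13 of the 599 genes that rose or fell and have one. This share was about the same as the 2.17% of all tested windows (221 of 10203). Both shares cover only the 79.0% of tested genes that have a start, and no conclusion is drawn from them. The windows of the 6 genes with the largest changes among those over 2-fold against each control are shown because a peak overlaps part of each. They are from RefSeq (GRCh38.p14), each 5′ to 3′ on the strand of the gene, with capitals for GATAA on either strand (GATAA or TTATC), the core that GATA factors read. It occurs in 23.2% of all 27305 promoter windows and in 13.2% of the 10203 windows of tested genes. A match is a description of the letters and not a site. In *ZNF616* the marked motif lies inside the TRPS1 peak (chr19:52139734-52140105). In *GSTA4*, *SLC25A21-AS1* and *PMM1* it lies outside the part of the window that the peak covers. The peaks there are at chr6:52995498-52995787, chr14:37171946-37172169 and chr22:41589960-41590298.

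ZNF616: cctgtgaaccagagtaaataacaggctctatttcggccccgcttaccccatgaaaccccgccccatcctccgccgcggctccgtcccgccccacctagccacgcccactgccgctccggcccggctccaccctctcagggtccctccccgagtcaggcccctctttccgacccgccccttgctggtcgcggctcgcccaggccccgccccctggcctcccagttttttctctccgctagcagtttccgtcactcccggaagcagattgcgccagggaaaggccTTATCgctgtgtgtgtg
DDIT3: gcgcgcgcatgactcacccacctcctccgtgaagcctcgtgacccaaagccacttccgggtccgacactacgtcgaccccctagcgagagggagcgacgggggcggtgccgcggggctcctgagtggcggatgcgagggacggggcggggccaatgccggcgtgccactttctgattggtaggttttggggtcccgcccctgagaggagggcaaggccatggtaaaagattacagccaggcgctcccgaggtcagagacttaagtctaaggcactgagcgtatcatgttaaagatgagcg
MFSD4B: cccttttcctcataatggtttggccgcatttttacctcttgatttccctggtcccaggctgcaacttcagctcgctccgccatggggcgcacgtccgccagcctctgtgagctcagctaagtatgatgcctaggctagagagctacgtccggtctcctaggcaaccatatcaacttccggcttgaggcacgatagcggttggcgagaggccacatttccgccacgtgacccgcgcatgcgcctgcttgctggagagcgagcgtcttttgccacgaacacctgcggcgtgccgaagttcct
GSTA4: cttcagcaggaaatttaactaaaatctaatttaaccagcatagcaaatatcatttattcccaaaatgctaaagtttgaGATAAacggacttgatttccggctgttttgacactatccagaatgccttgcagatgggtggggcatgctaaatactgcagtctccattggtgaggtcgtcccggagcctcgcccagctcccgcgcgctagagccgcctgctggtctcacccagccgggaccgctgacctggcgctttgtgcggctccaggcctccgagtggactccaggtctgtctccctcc
SLC25A21-AS1: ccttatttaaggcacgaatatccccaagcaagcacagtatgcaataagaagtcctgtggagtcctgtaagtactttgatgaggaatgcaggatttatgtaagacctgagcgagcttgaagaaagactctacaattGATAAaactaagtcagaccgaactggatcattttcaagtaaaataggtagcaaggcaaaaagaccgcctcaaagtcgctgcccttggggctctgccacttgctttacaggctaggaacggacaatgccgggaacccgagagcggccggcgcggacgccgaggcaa
PMM1: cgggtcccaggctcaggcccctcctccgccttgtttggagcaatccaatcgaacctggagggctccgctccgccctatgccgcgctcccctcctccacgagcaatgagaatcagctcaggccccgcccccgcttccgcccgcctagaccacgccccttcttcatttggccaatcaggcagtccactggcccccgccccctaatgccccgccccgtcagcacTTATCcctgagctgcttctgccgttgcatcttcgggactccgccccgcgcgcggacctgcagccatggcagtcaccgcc

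*ZNF616* (window chr19:52139889-52140188, minus strand), a zinc finger gene, was at 10.9 and 24.6 CPM in the controls and at 64.2 and 74.3 CPM upon silencing (log2 fold change 1.96, with 2.67 and 1.49 against each control). Its window holds GATAA once, near the start of transcription. *GSTA4* (chr6:52995235-52995534, minus strand), a glutathione transferase, was at 1.66 and 4.46 CPM against 9.43 and 10.2 CPM (1.68, with 2.56 and 1.14). *SLC25A21-AS1* (chr14:37171776-37172075, plus strand), a long non-coding RNA antisense to a mitochondrial carrier gene, was at 4.98 and 4.46 CPM against 13.5 and 16.7 CPM (1.67, with 1.6 and 1.76). Both windows hold the motif once. *PMM1* (chr22:41589791-41590090, minus strand), a phosphomannomutase and the 1 of the 6 that fell, was at 24.6 and 22.4 CPM against 9.06 and 7.94 CPM (-1.47, with -1.54 and -1.40), and its window holds the motif once as well.

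The windows of *DDIT3* (chr12:57520465-57520764, minus strand) and of *MFSD4B* (now *SLC60A2*, chr6:111259089-111259388, plus strand), a membrane transporter, hold no GATAA. *MFSD4B* was at 2.89 and 13.0 CPM in the controls and at 30.6 and 22.7 CPM upon silencing (1.74, with 3.20 and 1.03). In 5 of the 6 genes, *DDIT3* being the exception, the 2 silenced libraries were within 2-fold of each other. The strand used in counting is not given in the sources used here, so that reads of *SLC25A21-AS1* and *DDIT3* cannot be separated from those of the genes they overlap.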

How the data were processed

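RNA-seq libraries of T47D cells (2 control siRNA, 2 *TRPS1* siRNA) were compared. The authors trimmed adaptors and low-quality ends, used STAR for alignment and HTSeq (version 0.9.0) for counting, and the deposited values are raw counts per gene. The labels name build hg38, and the annotation and the strand setting are not given in the sources used here. The authors called the deposited ChIP peaks with MACS2, and only peak start and end positions were used. After the filter of 2 CPM (2 of 4 libraries), counts were normalized by TMM and tested with the quasi-likelihood F-test of edgeR (4.0.16, R 4.3.3), with a prior count of 0.125 and Benjamini-Hochberg adjustment. Standard errors were taken as the absolute log2 fold change over the root of F. Fold changes against 1 control came from the same model without the other control. The script was tested on simulated data. Positions and promoter windows come from RefSeq (12707 of 12921 genes matched).

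Named genes are *TRPS1*, the 12 largest rises and falls (mean of at least 10 CPM, over 2-fold against each control), the 10 smallest p, from each group the called members (at most 4, otherwise the member with the smallest p), genes the study names, and 6 promoters. Outside this rule, and chosen after their values were seen, are *GATA3*, *FOXA1*, *ESR1*, *KRT18*, *PGR*, *CCND1*, *KCNK5*, *CA12*, *DUSP5*, *KRT15*, *EGFR*, *ELF5*, *IFIT1* and *ISG15*. Members, groups and rules were chosen with earlier results of these data known. Alternatives tried were the likelihood ratio test, DESeq2 (1.42.0), other scalings and filters, a fit of all 6 RNA-seq libraries, a replicate block, another prior count (2) and leaving out each library. For 1 gene, 2 libraries against 2 allow an exact two-sided p of 0.3333 at the least. One X-linked transcript that can reveal sex, and 1 other gene that the rule names, are not reported here.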

Additional observations from a re-analysis of the deposited data

How the results depend on the processing

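Of 106 called named genes, 26 were called under every alternative and none changed sign, while 68 were no longer called without *TRPS1* siRNA replicate 1, 47 without replicate 2, 37 without control replicate 1 and 4 without control replicate 2. Leaving out 1 library, with the lone sample of an arm assumed to vary like the other group, moved the called genes from 97 (without *TRPS1* siRNA replicate 1) to 4365 (without control replicate 2), with 47 to 2487 higher and 50 to 1878 lower, and genes at an adjusted p under 0.05 from 0 to 6165. The log2 fold change of *TRPS1* ranged from -0.61 (without control replicate 2) to -1.36 (without *TRPS1* siRNA replicate 1), and was -1.26 without control replicate 1. Genes at an adjusted p under 0.05 numbered 34 with the likelihood ratio test and 37 with DESeq2. Library sizes alone gave 253 genes lower against 490 higher, and 78 lower against each control. Without a filter on low counts 1359 genes were called (635 higher, 724 lower), 432 were higher against each control, and *TRPS1* was at -1.01. The replicate block gave 1221 called genes, 741 of them higher, and 32 at an adjusted p under 0.05. With only 2 shared numbers and a correlation of 0.0802 between the deviations of same-numbered libraries, the numbers were not taken to pair the samples. With peaks inside the gene or within 50 kb, alternatives chosen after seeing the data, the share with a peak was 10.1% and 21.9% of genes that rose and 4.88% and 21.2% of those that fell. The same shares of all tested genes with a RefSeq position were 5.70% and 17.0%. Distances from the transcription start (1, 5 and 50 kb) were not used, since 79.0% of tested genes have a start there, under a minimum of 80%, and exon length was not run for want of exon lengths. The cause of these changes was not tested.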
